A study of Mus musculus with 8 samples.

Results

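The genes described here carry out and control lipolysis, the breakdown of stored triglyceride, and move the glycerol it releases. The set was fixed as 7 genes by name: Pnpla2, Lipe, Mgll, Abhd5, G0s2, Aqp7 and Gyk. By the gene symbols given for the array's probes, 6 of the 7 were read by 12 of the 25697 probes, among 16593 named genes in all. No probe was matched to Gyk, the glycerol kinase gene that RefSeq lists as Gk, and it was not analysed here. Total RNA came from an immortalized brown adipocyte cell line of the mouse, differentiated for 8 days. They then received DMSO, the vehicle, in 4 samples or 10 µM of Z16078526, a compound given only by this code, in 4 others, and were taken 18 h later. The strain of origin, the way the line was immortalized and whether the 4 samples of a group were separate cultures are not stated in the labels, so p-values cover the spread between samples alone, and that spread may be technical.

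In fat cells triglyceride is cut in sequence. Adipose triglyceride lipase, encoded by Pnpla2, removes the first fatty acid, hormone-sensitive lipase (Lipe) acts mainly on the resulting diglyceride, and monoglyceride lipase (Mgll) frees the last fatty acid and glycerol. The protein of Abhd5 (also CGI-58) activates adipose triglyceride lipase and that of G0s2 inhibits it. Aqp7 encodes a membrane channel that lets glycerol leave the cell, and glycerol kinase returns glycerol to glycerol 3-phosphate. In brown fat the fatty acids feed oxidation in mitochondria and activate the uncoupling protein.

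With the compound, the gene of the lipase activator (Abhd5), that of the lipase inhibitor (G0s2) and that of the glycerol channel (Aqp7) were higher, and the gene of the last lipase (Mgll) was lower. Aqp7 rose 1.71-fold and Abhd5 1.41-fold, G0s2 rose by 1.12-fold only, and Mgll was 1.34-fold lower by its brightest probe. Pnpla2, 1.17-fold lower in the group means, missed the threshold, and Lipe had overlapping groups. In counts, 3 of the 6 measured genes were called higher and 1 lower at an adjusted p of 0.05 in limma, against 15.2% of all 16593 genes called in either direction (7.97% higher and 7.19% lower). All 6 exceeded the floor intensity of 16 on all 8 arrays, and of the 7965 genes for which this held 30.5% were called. The 2 groups did not overlap in 5 of the 6, against 19.8% of all genes and 39.5% of those above the floor throughout. The median log2 difference of the 6 was 0.12, beside 0.02 for the genes above the floor throughout.

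The stretches upstream of 4 of these genes are shown because they belong to the members that were called. Each holds the 250 bases before the most upstream transcription start that RefSeq lists for the gene (build GRCm38.p6), written 5′ to 3′ on the gene's strand. Capitals mark matches to AGGTCA, the core motif bound by nuclear receptors such as the PPARs, which reads TGACCT on the other strand.
Aqp7, chr4:41048137-41048386, - strand: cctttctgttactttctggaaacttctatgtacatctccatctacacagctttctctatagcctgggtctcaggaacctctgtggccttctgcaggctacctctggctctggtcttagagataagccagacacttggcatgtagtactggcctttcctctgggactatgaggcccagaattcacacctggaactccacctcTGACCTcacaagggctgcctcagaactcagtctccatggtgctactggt
Abhd5, chr9:122351366-122351615, + strand: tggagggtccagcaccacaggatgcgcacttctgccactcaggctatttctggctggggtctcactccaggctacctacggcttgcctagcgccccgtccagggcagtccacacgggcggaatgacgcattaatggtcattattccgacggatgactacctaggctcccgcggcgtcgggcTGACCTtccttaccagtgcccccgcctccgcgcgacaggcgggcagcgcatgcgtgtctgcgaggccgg
G0s2, chr1:193273189-193273438, - strand: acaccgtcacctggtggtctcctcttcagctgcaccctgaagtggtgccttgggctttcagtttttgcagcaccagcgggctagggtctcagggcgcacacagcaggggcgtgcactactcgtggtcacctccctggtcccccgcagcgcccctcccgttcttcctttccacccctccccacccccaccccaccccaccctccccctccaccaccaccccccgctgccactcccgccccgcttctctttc
Mgll, chr6:88724162-88724411, + strand: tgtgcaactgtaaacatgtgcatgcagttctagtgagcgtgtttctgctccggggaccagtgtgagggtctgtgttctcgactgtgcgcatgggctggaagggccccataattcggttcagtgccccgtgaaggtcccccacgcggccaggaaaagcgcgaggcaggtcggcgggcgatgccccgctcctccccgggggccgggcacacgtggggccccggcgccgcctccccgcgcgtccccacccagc
Of these 4, Aqp7 and Abhd5 each held 1 match, on the opposite strand, starting 49 and 69 bases before the start. The stretches of G0s2 and Mgll held none, nor did those of Pnpla2, Lipe and Gyk, so 2 of 7 had a match, against 13.8% of 27025 genes with such a stretch. The paired form AGGTCANAGGTCA, to which PPARs bind with their partner receptor and which contains the core motif, was in none of the 7 and in 0.037% of all stretches. The cAMP response element TGACGTCA was likewise in none of the 7 (1.6% of all). CACGTG, the E-box, was in the stretches of Lipe, Mgll and Gyk (3 of 7, against 6.04%), and GGGCGG, the GC box, in those of Pnpla2, Lipe, Abhd5, G0s2 and Gyk (5 of 7, against 33%). The shares over all stretches were not matched for GC content. It was 50.8% in the stretch of Aqp7 and ran from 62.8% (Lipe) to 68% (Mgll) in the other members. Both strands were searched. RefSeq lists 2 starts each for Aqp7, Lipe and Mgll, and only the stretch before the most upstream was searched. A match is a description of the letters, and binding was not measured.

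Values below are probe intensities on the deposited linear scale, and differences are on the log2 scale after intensities under 16, the floor, were set to 16. Between 13528 and 13564 probes exceeded the floor on an array. Across genes, Pearson's r between 2 arrays was 0.9959 to 0.9966 for DMSO pairs, 0.9929 to 0.9952 for treated pairs and 0.9888 to 0.9925 for mixed pairs. Treated arrays 1 and 3 lay apart in opposite directions: their deviations from the group mean correlated with r = -0.74 across 6210 genes with a mean log2 over 7. Deviations from a group mean cancel within each gene, so a negative r between arrays of 1 group arises in part by construction. Of the fat cell markers, Adipoq (mean intensity 22846 in DMSO), Pparg (11209) and Cox7a1 (20647) were bright, Ucp1 was dim (30.2 in DMSO and 76.7 in treated samples), and neither Dio2 nor Prdm16 exceeded the floor on any of the 8 arrays, so the label of brown adipocyte rests on part of its markers. The summed intensity of 8 mature fat cell markers was 41850 to 44496 in DMSO and 40221 to 43739 in treated samples (2 called higher, Cidec and Fabp4, and 2 lower, Lep and Pparg). Such sums follow their brightest genes, here Adipoq (log2 difference -0.04), while Lep fell 5.33-fold, from a mean of 1323 to 249. The sum of 9 preadipocyte and fibroblast markers was 14234 to 16343 in DMSO and 9039 to 12429 in treated samples (2 lower, Vim and Dcn, and 0 higher), with Dpp4 and Thy1 at the floor on all arrays. Vim, the brightest of these, went from a mean of 9320 to 6062. Col1a1, Dlk1, Pdgfra, Pdgfrb and Cd34 were not called (log2 differences -0.32 to -0.07). In bulk RNA fewer cells of a type and less RNA per cell cannot be told apart. Of 6 macrophage markers 3, among them Ptprc, were at the floor on all arrays, and their summed intensity was 96.0 to 110 in DMSO and 99.6 to 121 in treated samples, where 6 markers at the floor would give 96.0. Of 9 brown adipocyte markers Ucp1, Cidea and Cox8b were called higher and 0 lower, and the summed intensity was 23105 to 25187 in DMSO and 24746 to 26659 in treated samples. Cox7a1, the brightest of them, had a log2 difference of -0.02. Of 7 endothelial markers 3 were called lower (Flt1, Sox18 and Tek) and 0 higher, with sums of 202 to 231 in DMSO and 131 to 159 in treated samples, and Cdh5, Emcn and Kdr were at the floor on all arrays. Sox18 had a mean of 55.1 in DMSO and Tek one of 18.6, just above the floor of 16, and both were at the floor on all treated arrays. The log2 difference of Tek was only -0.21. Of 7 skeletal muscle markers Des was called lower and 0 higher, with sums of 387 to 455 and 277 to 400, and Myod1 and Ckm were at the floor on all arrays. The part of these markers in the results below was not tested.

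The first lipase, encoded by Pnpla2, was read by 1 bright probe. Its intensity was 11564, 10096, 9614 and 10920 in DMSO samples 1 to 4 and 9149, 8667, 9358 and 8746 in treated samples 1 to 4. Every treated sample lay below every DMSO sample, and the spread was wider in DMSO (10548 ± 865, SD, n = 4) than in treated samples (8980 ± 329). The log2 difference was -0.23 ± 0.06 (SE), with a 95% confidence interval of -0.38 to -0.08, and limma's adjusted p was 0.0564, so Pnpla2 was not called. This lies close to the threshold: when the 5504 genes at the floor on all arrays were left out of the fit, the same log2 difference had an adjusted p of 0.022, and without DMSO 3, its lowest vehicle sample, the difference was -0.27 (adjusted p = 0.0359). Over the 23 other settings tried it was called in 6, with adjusted p from 0.00472 to 0.154 and a negative difference throughout.

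Abhd5, whose protein activates that lipase, gave intensities of 1117, 1340, 1204 and 1069 in the DMSO samples and 1745, 1656, 1741 and 1519 in the treated samples. The groups did not overlap, with DMSO 2 the highest vehicle sample and treated 4 the lowest treated one. The mean rose from 1183 ± 119 to 1665 ± 106 (SD, n = 4 each), a log2 difference of 0.50 ± 0.08 (1.41-fold, 95% confidence interval 1.23 to 1.62, limma adjusted p = 0.00931). Abhd5 kept its call under all 23 other settings, with log2 differences of 0.45 to 0.56. Its difference was larger in size than that of 80.5% of the genes above the floor on all arrays.

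G0s2, the inhibitor of the same lipase, was bright and even: 20593, 19412, 20352 and 20425 in the DMSO samples and 21888, 22511, 22941 and 23051 in the treated samples. All treated samples lay above all DMSO samples, by a small margin. The log2 difference was 0.16 ± 0.03 (1.12-fold, 95% confidence interval 1.06 to 1.18, limma adjusted p = 0.0176). The call rests on the low spread, an SD of 0.04 in DMSO and 0.03 in treated samples on the log2 scale, where the medians over the 7965 genes detected throughout were 0.115 and 0.148. In size the difference exceeded that of only 34.4% of these genes.

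**Figure D1:**
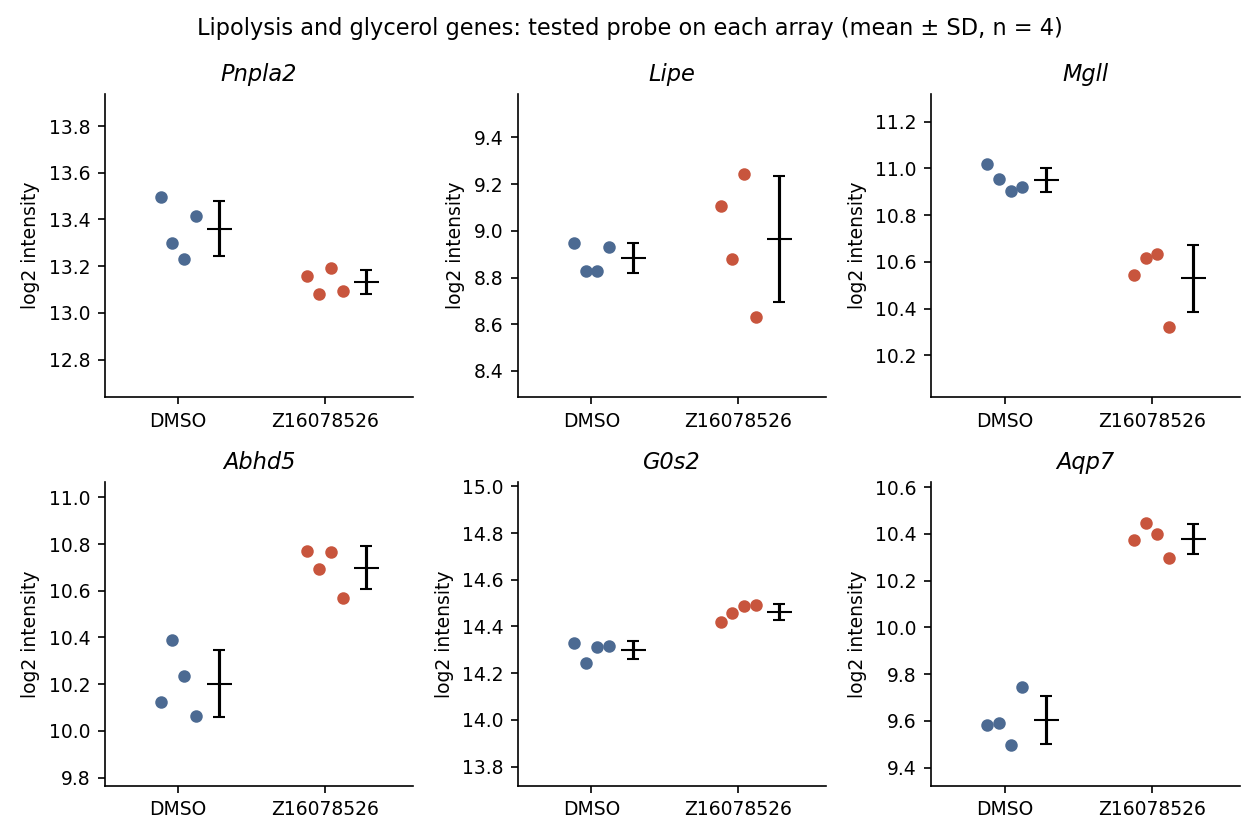
Log2 intensity of the tested probe of the 6 measured genes in the 4 DMSO (blue) and 4 Z16078526 (red) samples, with the mean ± SD beside each group; each vertical axis spans the same log2 range around the gene's own values. Treated samples lie apart from and above DMSO samples in Abhd5, G0s2 and Aqp7, apart and below in Pnpla2 and Mgll, and overlap them in Lipe, where the treated SD is 0.27.

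Lipe, the diglyceride lipase, was read by 2 probes. The brighter one gave 493, 455, 455 and 488 in the DMSO samples and 551, 471, 607 and 396 in the treated samples. The treated samples lay on both sides of the DMSO range, with treated 3 highest and treated 4 lowest. The log2 difference was 0.08 ± 0.13 (limma adjusted p = 0.996), and its 95% confidence interval, -0.23 to 0.40, reaches from a 0.85-fold to a 1.32-fold level, so changes within that range could not be seen. Without treated 3 it turned sign (-0.011). The SD among treated samples, 0.27, was larger than that of 80.1% of the genes above the floor on all arrays, and in DMSO it was 0.06. The second, dim probe gave 87.8, 74.9, 92.8 and 95.6 in the DMSO samples and 116, 99.5, 114 and 136 in the treated samples. These groups did not overlap, and the log2 difference was 0.41 ± 0.13, but with adjustment over all probes limma's adjusted p was 0.1, so this probe was not called either. The mean of the 2 probes was not called, with a log2 difference of 0.24.

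Mgll, the monoglyceride lipase, was read by 3 probes that did not give the same result. The brightest, used in the test, gave 2076, 1985, 1915 and 1941 in the DMSO samples and 1495, 1570, 1589 and 1280 in the treated samples. The groups lay far apart, with treated 4 lowest, and the log2 difference was -0.42 ± 0.07 (1.34-fold lower, 95% confidence interval 1.19 to 1.51, limma adjusted p = 0.0111). The second probe, of similar brightness, gave 1285, 1360, 1178 and 1374 in the DMSO samples and 1382, 1339, 1241 and 1157 in the treated samples. Here the groups overlapped throughout, with a log2 difference of -0.02 ± 0.07 and an interval of -0.20 to 0.15 that does not reach the value of the first probe. The third probe gave 496, 513, 488 and 518 in the DMSO samples and 498, 415, 271 and 350 in the treated samples. Its treated values spread widely, with treated 1 at the DMSO level and treated 3 lowest, and the log2 difference of -0.43 ± 0.18 was not called (adjusted p = 0.218 over all probes). With the mean of the 3 probes Mgll was no longer called (log2 difference -0.29, adjusted p = 0.07). Mgll was thus called by 1 probe of 3, and which transcripts each probe reads is not given here.

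Aqp7, the glycerol channel of fat cells, was read by 4 probes, and its brightest showed the largest difference of the 6 genes. It gave 767, 771, 722 and 859 in the DMSO samples and 1326, 1397, 1351 and 1257 in the treated samples. Every treated sample exceeded the highest DMSO sample (DMSO 4) by far more than the spread within a group. The mean rose from 780 ± 57.2 to 1333 ± 58.7 (SD, n = 4 each), a log2 difference of 0.78 ± 0.06 (1.71-fold, 95% confidence interval 1.55 to 1.89, limma adjusted p = 0.000698). This was larger in size than the difference of 94.2% of the genes above the floor on all arrays. The second probe gave 497, 587, 557 and 584 in the DMSO samples and 1034, 1128, 1169 and 947 in the treated samples. These groups did not overlap either, and the log2 difference was 0.94 ± 0.08 (1.92-fold, adjusted p = 0.00142 over all probes). The 2 dimmer probes overlapped between the groups, one at 145 to 235 in DMSO and 173 to 272 in treated samples (log2 difference 0.23 ± 0.20), the other at 24.6 to 55.5 and 20.8 to 58.0 (-0.18 ± 0.42). Their intervals, -0.26 to 0.72 and -1.18 to 0.82, were wide, the former ending below the first probe's value of 0.78 and the latter including it. With the mean of all 4 probes the difference was 0.44 and the call was lost (adjusted p = 0.0617).

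**Figure D2:**
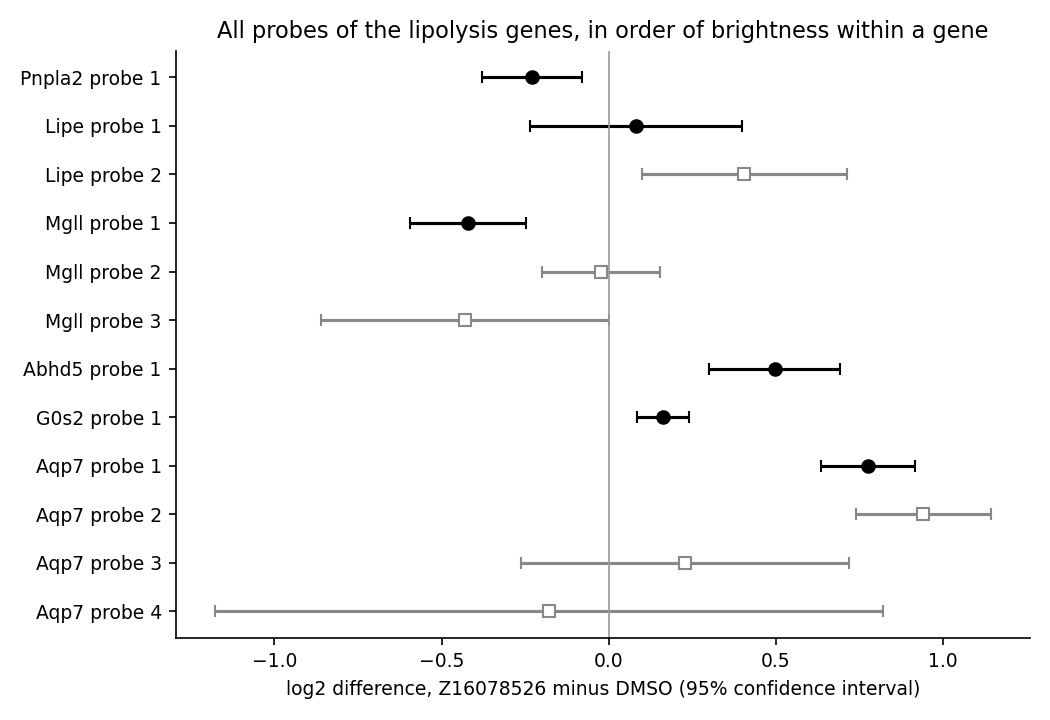
Log2 difference, Z16078526 minus DMSO, with its 95% confidence interval for each of the 12 probes, numbered by brightness within a gene; filled circles are the probes used in the gene-level test and open squares the others. The first 2 Aqp7 probes lie together at 0.78 and 0.94, while the first and second Mgll probes, at -0.42 and -0.02, lie apart.

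**Figure D3:**
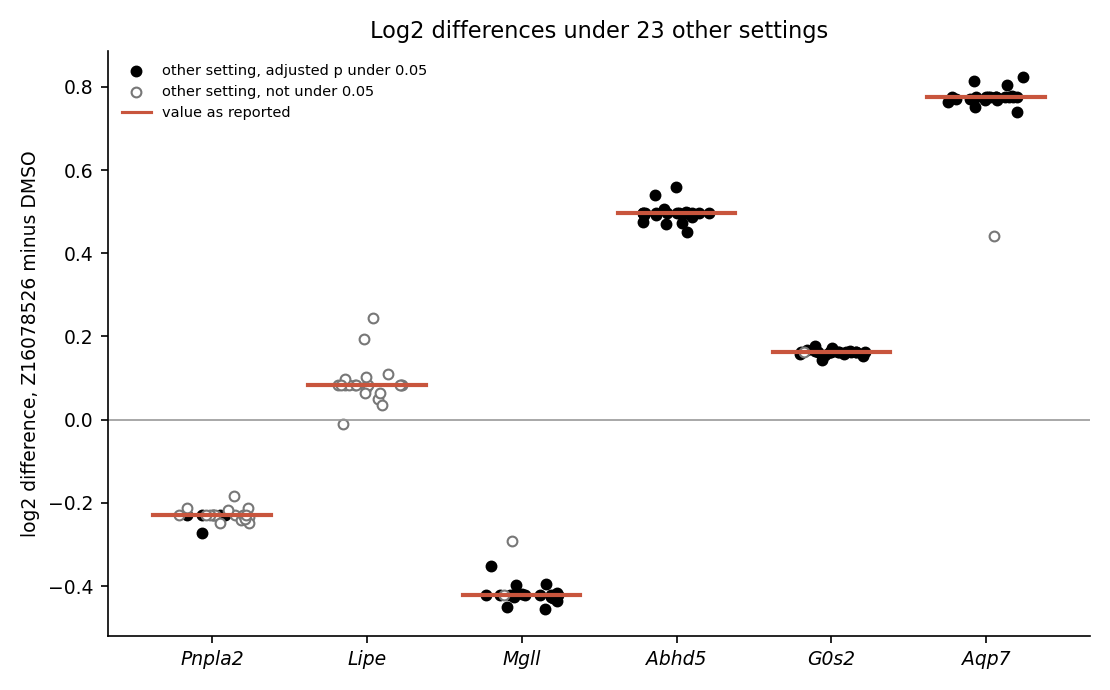
Log2 difference, Z16078526 minus DMSO, of the 6 genes under 23 other settings of the processing or with 1 array left out; black points had an adjusted p under 0.05, open points did not, and the red line is the value reported here. Abhd5 was called in all, Pnpla2 in 6 and Lipe in none, and the 1 low point of Aqp7, at 0.44, is the mean of its 4 probes.

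Since the products of Pnpla2, Abhd5 and G0s2 act on each other, their shifts were also compared within arrays, by an exact two-sided permutation test over samples of the difference between the log2 values of 2 genes. Levels of different probes were not compared. Pnpla2 shifted by -0.39 relative to G0s2 (SD of the difference 0.10 in DMSO and 0.07 in treated samples), with no overlap between the groups (exact p = 0.0286, the smallest that 4 against 4 samples allow, 0.0857 adjusted over the 3 differences tested). Abhd5 shifted by 0.33 relative to G0s2, with overlap (exact p = 0.0571, adjusted 0.0857), and Pnpla2 by 0.19 relative to Mgll (exact p = 0.0857, adjusted 0.0857). None of the 3 passed after adjustment. A single difference at the smallest exact p cannot pass when adjusted over 3, so the adjusted values say nothing about whether these pairs shifted equally.

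The genes whose log2 values followed each member most closely over the 8 arrays, among 7852 others above the floor throughout, are given as a description. They were Mvd, a cholesterol synthesis gene, for Aqp7 (r = 0.996), Mettl8 for Abhd5 (0.993), Map2k3, which encodes a kinase of the p38 pathway, for Mgll (0.992), Sh3tc2 for G0s2 (0.991), Xpr1, a phosphate exporter gene, for Pnpla2 (0.983) and Ctsb, the gene of the lysosomal protease cathepsin B, for Lipe (0.932). These points share the arrays and the treatment, and r says nothing about the size of a change: the log2 difference was 1.18 in Sh3tc2 and 0.16 in G0s2.

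The genes around these enzymes were taken from 8 lists with 157 measured genes, of which 26 were called higher and 14 lower (25.5% called, against 15.2% of all genes), with a median log2 difference of 0 in both. Of the 157, 19 were at the floor on all arrays, against 5504 of the 16593, and among the 115 above it on all arrays 39 were called (33.9%), close to the 30.5% of all such genes. By list the share called ran from 18.8% (glycerol genes) to 35% (transcription factor genes), and no list was tested. Receptors that start or restrain lipolysis were called higher in 4 of 13, and lower in 0. Hcar2, the receptor for niacin and β-hydroxybutyrate that restrains lipolysis, rose from an intensity of 336 ± 37.8 to 772 ± 104 (SD, n = 4 each), 2.29-fold (log2 difference 1.20 ± 0.12, limma adjusted p = 0.00174). Its values were 292 to 374 in DMSO and 669 to 867 in treated samples, with a wide gap between the groups. Ffar2, a receptor for short-chain fatty acids, rose 1.34-fold (adjusted p = 0.00758). Tshr, the thyrotropin receptor gene, rose 1.90-fold (adjusted p = 0.0168) and Npr3, the clearance receptor for natriuretic peptides, 1.80-fold (0.0281), both from dim levels (means of 32.5 and 87.3 in DMSO). Npr3 lost its call without any 1 of DMSO 1, 3 and 4 and treated 2, 3 and 4 (adjusted p 0.0711 to 0.0786), and Tshr without DMSO 1 (0.0535) or DMSO 4 (0.0507) and with a floor of 50 (0.322). Ffar4, the brightest gene on this list, went the other way, from 9716 ± 448 to 8432 ± 693 with no overlap between the groups. Its log2 difference of -0.21 was not called (limma adjusted p = 0.0952). Hcar1, the lactate receptor gene, had a log2 difference of -0.18 (adjusted p = 0.646), and Ptger3, Ptger4 and Npy1r were at the floor on all arrays.

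Of 29 genes of cyclic nucleotide and insulin signalling, 5 were lower and 1 higher. Protein kinase A phosphorylates hormone-sensitive lipase and perilipin when cAMP rises. Its catalytic subunit genes Prkaca and Prkacb fell, from 7953 ± 363 to 5721 ± 358 (1.39-fold, adjusted p = 0.00227) and from 4323 ± 282 to 3484 ± 150 (1.24-fold, adjusted p = 0.0117). A second Prkaca probe gave a log2 difference of -0.36 beside -0.48. The regulatory subunit gene Prkar1a fell 1.21-fold (0.0141), and Adcy7, an adenylyl cyclase gene read at a dim level, 1.95-fold (0.0169). Pik3r1, which encodes a regulatory subunit of phosphoinositide 3-kinase, fell by 0.59 on the log2 scale. Pde4d, a cAMP phosphodiesterase gene, rose 1.70-fold (adjusted p = 0.0351) from a dim level. Pde4d lost its call without any 1 array but DMSO 3 and treated 4 (adjusted p 0.0647 to 0.0947) and with averaged probes (0.182), Pik3r1 without DMSO 2 (0.0502), and Adcy7 without DMSO 4 (0.0506) and with a floor of 50 (0.318). Pde3b, the phosphodiesterase by which insulin restrains lipolysis, exceeded the floor on 1 DMSO array and 0 treated arrays. Gnas, the stimulatory G protein gene, had a log2 difference of -0.85 that was not called (adjusted p = 0.0765).

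On the surface of the lipid droplet, where the lipases act, 5 of 26 genes were higher and 1 lower. Cidea, which encodes a droplet protein of brown fat, rose from 1062 ± 51.3 to 2370 ± 160, and Hilpda, whose product inhibits adipose triglyceride lipase, from 1932 ± 59.2 to 3743 ± 296. Plin5, a droplet protein that binds Abhd5 and adipose triglyceride lipase, rose from 186 ± 6.39 to 351 ± 39.1, and Plin2 from 2808 ± 146 to 5256 ± 599. The adjusted p of these 4 were 0.000416 to 0.00146, and Cidec, a droplet fusion gene, was also called. Plin4 fell 1.24-fold (adjusted p = 0.0206, and 0.0599 without DMSO 2). Plin1, which holds Abhd5 at the droplet of the resting cell, had a log2 difference of 0.22 (adjusted p = 0.0959), and Cop1, whose product marks adipose triglyceride lipase for degradation, of 0.05 (0.933).

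Among 19 other hydrolases of neutral lipids, 3 were higher and 1 lower. Pnpla8, which encodes a phospholipase of the same family as Pnpla2, rose 1.67-fold (adjusted p = 0.00187), Abhd6, another monoglyceride hydrolase gene, 2.07-fold from a dim level (39.4 ± 2.42 to 82.4 ± 16.2, adjusted p = 0.00782), and Ldah, a droplet-associated hydrolase gene, 1.24-fold (0.0219). A second Pnpla8 probe gave a log2 difference of -0.05, and with averaged probes Pnpla8 was not called (adjusted p = 0.281). Ldah lost its call without any 1 of DMSO 1, 3 and 4 and treated 2 and 3 (0.0577 to 0.0658). Pnpla6, the neuropathy target esterase gene, fell 1.38-fold (0.00442). Lipa, the lysosomal acid lipase gene, had a log2 difference of 0.29 (adjusted p = 0.0824), and Lpl, the lipoprotein lipase gene, of -0.02.

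For the fatty acids that lipolysis releases, 6 of 18 genes were higher and 0 lower, with a median log2 difference of 0.34. Angptl4, a secreted inhibitor of lipoprotein lipase, rose from 7263 ± 335 to 11596 ± 364, and Fabp4, which carries fatty acids in fat cells, from a dim 93.7 ± 10.7 to 295 ± 20.3 (both adjusted p = 0.000449). Fabp5, a related carrier, rose 1.79-fold (0.00354), and Cpt2, of the carnitine shuttle into mitochondria, 1.33-fold (0.00131). The acyl-CoA synthetase genes Acsl3 and Acsl4 were also called higher, but with the mean of its probes Acsl3 turned sign (-0.23), and Acsl4 lost its call without any 1 of DMSO 1, 2 and 3 and treated 2 (adjusted p 0.0662 to 0.0738).

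Of 16 genes of glycerol and glycerol 3-phosphate, Gpcpd1, Gde1 and Gpd1 were higher and 0 were lower. Gpd1, which links glycerol 3-phosphate to glycolysis, rose 1.34-fold (1057 ± 93.1 to 1416 ± 143, adjusted p = 0.0269). Gpcpd1 and Gde1, which encode phosphodiesterases of glycerophospho compounds, rose 1.63-fold (adjusted p = 0.00302) and 1.18-fold (0.00974). Gpd1 lost its call without any 1 of DMSO 1 and 3 and treated 1 and 2 (adjusted p 0.0550 to 0.0735), and averaged probes gave Gpcpd1 a log2 difference of 0.09, not called. No other glycerol channel gene was called: Aqp9 was at the floor on all arrays, Aqp3 was above it on 1 DMSO array only, and Aqp11 had a log2 difference of 0.26 (adjusted p = 0.446). Aqp5, a water channel gene on the same list, went from 99.3 ± 25.4 to 39.4 ± 17.5 with no overlap between the groups, a log2 difference of -1.44 ± 0.43 (SE) that was not called (adjusted p = 0.0773). Of the relatives of Gyk, Gk5 had a log2 difference of 0.53 (adjusted p = 0.0653) and Gk2 was at the floor on all arrays. Pck1, of glyceroneogenesis, was above the floor on 1 treated array only.

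Of 16 genes that put fatty acids back into triglyceride, Gpat3 and Dgat1 were higher and Gpam and Lpin1 lower. Dgat1, the last acyltransferase, rose 1.29-fold (adjusted p = 0.0193), and Gpat3, an acyltransferase of the first step, 1.55-fold (0.0181), though its second probe gave a log2 difference of -0.21. Gpam, the mitochondrial acyltransferase gene of the first step, fell 2.39-fold (112 ± 6.49 to 47.3 ± 7.45, adjusted p = 0.00228), and Lpin1, a phosphatidate phosphatase gene, 1.42-fold (0.00633). With averaged probes neither Gpat3 (adjusted p = 0.689) nor Lpin1 (0.137) was called. Leaving out DMSO 1, 3 or 4 or treated 2 ended the call of Gpat3 (adjusted p 0.0506 to 0.057), and leaving out DMSO 3 or treated 2, 3 or 4 that of Dgat1 (0.0510 to 0.0587).

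Of 20 transcription factor genes reported to act on lipase genes, 2 were higher (Sirt1, 1.45-fold, which encodes a deacetylase that acts on such factors, and Nr1h3) and 5 lower. Pparg, the receptor whose targets include Pnpla2, G0s2 and Aqp7, fell from 11209 ± 681 to 8281 ± 380 (adjusted p = 0.00309), and Foxo1, known to raise Pnpla2 transcription, from 463 ± 28.5 to 292 ± 29.4 (0.00303). Snai1, a repressor of Pnpla2, fell 1.53-fold (0.00518) and Srebf1 1.76-fold (0.00961), while Nr3c1, also called lower, was above the floor on only 1 treated array and was not called with a floor of 50 (adjusted p = 0.391), a pseudocount (0.0752) or robust variance (0.0694). Sirt1 lost its call without DMSO 1, DMSO 3 or treated 2 (0.0587 to 0.0604), and Nr1h3 without DMSO 1 (0.0517). A second Nr1h3 probe gave a log2 difference of -0.39 beside 0.26, and with averaged probes the sign turned (-0.067). Irf4, a factor that raises Pnpla2 and Lipe, had a log2 difference of -0.28 (adjusted p = 0.697).

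**Figure D4:**
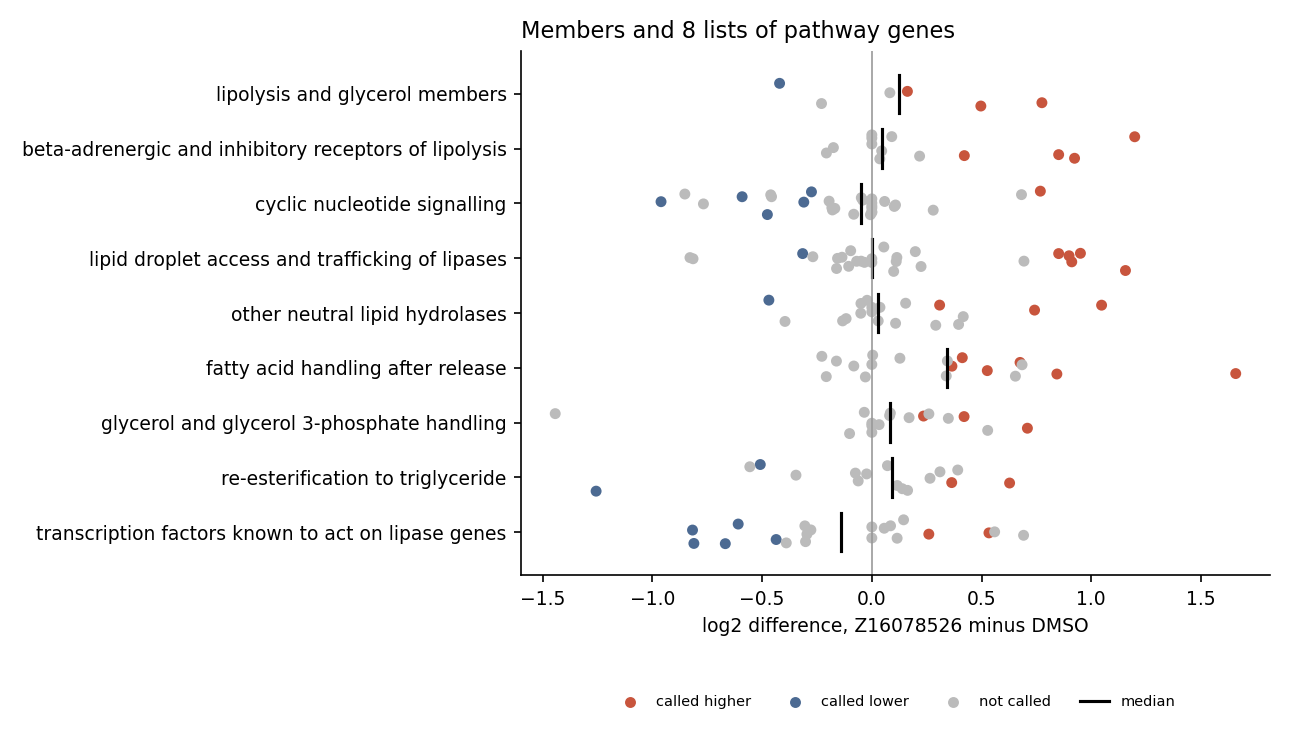
Log2 difference, Z16078526 minus DMSO, of each measured gene (points) among the 6 members and 8 lists of genes around lipolysis, with the median as a black bar; red and blue points were called higher and lower, and points are spread vertically for legibility. Called genes lie on both sides of 0 in most lists, and on the higher side only among the receptors (4 of 13), the fatty acid genes (6 of 18) and the glycerol genes (3 of 16). Of all 16593 genes 7.97% were called higher and 7.19% lower, and no list was tested.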

How the data were processed

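Intensities per probe, on a linear scale, were deposited by the authors for 25697 probes of 8 arrays (an Illumina platform by its probe identifiers). GenomeStudio is named in the submitters' processing notes, with no version or settings given. Between 28.28% and 28.44% of an array's intensities lay below 0, as background subtraction leaves them, and all columns shared an upper quartile of 307.989, as between-array normalization leaves them. Detection p-values were not used here.

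Intensities were set to at least 16 and log2 was taken. Probes were named through the platform annotation and RefSeq (23978 with a symbol), and the probe with the highest mean intensity stood for each of 16593 genes. Groups were compared with limma 3.58.1 in R 4.3.3 (lmFit, eBayes with trend, two-sided, group as the only term, Benjamini-Hochberg over all genes), tested first on simulated data. Single probes were adjusted over all probes. The threshold for a call was an adjusted p of 0.05. Precision is limited by 4 arrays per group.

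The members and lists were chosen with earlier results of these data known. Called list genes were named, up to 4 per direction with values, and others chosen after their values were seen were added as context. Adrb3 and list genes with no named probe were not analysed here. The within-array difference of Aqp7 against Gyk was not run because no probe was matched to Gyk.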

Additional observations from a re-analysis of the deposited data

Results flagged for a closer look

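Among 104 groups of 4 values examined for the members' probes and the called pathway genes, 3 were flagged for 1 sample far from the other 3, 1 of them through the floor. Chance flags about 1 in 20 groups, and none of those flagged was a member. Prkaca, the protein kinase A subunit gene, was highest in treated 3 (log2 12.61, against 12.42 to 12.45 in the other treated samples, a gap of 0.839 of the group's range). Fabp4 was highest in treated 2 (8.34, against 8.14 to 8.17, a gap of 0.849 of the range). Nr3c1 was above the floor in treated 1 alone (4.33, against 4). Its gap of 1.000 of the range was fixed by the floor, to which the other treated values were set. Before that step the intensities were 20.1, 7.63, 15.3 and -1.47 in treated samples 1 to 4.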

How the results depend on the processing

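The log2 differences of Abhd5 kept their direction and call under all 23 other settings. With the replicate number as a block, the calls of Mgll (-0.42, adjusted p = 0.0587) and G0s2 (0.16, 0.107) were lost, and 2 members, 24 pathway genes and 1123 genes in all were called. Of the 40 pathway genes called without it, 21 were still called. The labels do not say whether same-numbered samples were paired. Deviations of same-numbered samples correlated with r of -0.10, 0.09, -0.22 and 0.21, which cannot decide it, so the calls lost with the block remain a limit. With probes averaged per gene Mgll (-0.29) and Aqp7 (0.44) lost their calls. Then 2 members, 36 pathway genes and 2304 genes in all were called. At an adjusted p of 0.01, 2 members, 24 pathway genes and 1194 genes in all were called, against 4, 40 and 2516. Pnpla2 was called, at -0.23, with a pseudocount of 16, with either filter on dim genes (mean log2 over 5, or above the floor on at least 4 arrays), with robust variance and, a setting added after seeing the data, without genes at the floor on all arrays. A covariate for the spread within groups, also added then, changed no member's call. With 1 array left out, log2 differences were -0.27 to -0.18 (Pnpla2, called without DMSO 3), -0.01 to 0.19 (Lipe), -0.46 to -0.35 (Mgll), 0.45 to 0.56 (Abhd5), 0.14 to 0.18 (G0s2) and 0.74 to 0.82 (Aqp7). In these fits 4 to 5 members, 31 to 46 pathway genes and 1774 to 2465 genes in all were called. Lipe turned sign without treated 3 (-0.011). Counts of all genes called rose to 3637 and 3670 with the filters on dim genes and fell to 1774 without treated 2. These filters test fewer genes and also change the prior variance that limma estimates from the genes kept. With all genes that prior had 0.574 degrees of freedom. For genes of mean log2 over 5, the SE of Aqp7 was 0.077 against 0.058 with all genes. Its limma adjusted p was 1.16e-06 against 0.000698. What raised the counts was not tested. Of the 40 called pathway genes, 16 kept their call at an adjusted p of 0.05 in each of the 23 other settings that refit the data, and with the mean of probes Acsl3 (-0.23) and Nr1h3 (-0.067) turned sign. Causes were not tested.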
